A study of Mus musculus with 12 samples.

Results

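The Hedgehog pathway genes described here are 8 mouse genes, Shh, Ihh, Ptch1, Smo, Gli1, Gli2, Gli3 and Hhip, each taken as the merged locus to which the deposited assembly assigned that gene's name. They are 8 of 80012 counted loci, and all 8 passed the filter on low counts that left 20212 loci in the fit. Shh was selected because its rise from embryonic stem cells (ESCs) to Eomes-negative cells was among the largest, so its values are a description without a test, and the counts below are over the 7 other members. The question asked was whether the other members, among them target genes of the pathway, moved along with the ligand.

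The 12 poly(A) RNA libraries came from 1 EomesEGFP reporter ESC line on a C57BL/6 background, in which EGFP sits at the start site of the endogenous Eomes gene, an allele that all groups share. The 4 ESC libraries were from undifferentiated cells at day 0, grown on mouse embryonic fibroblast feeders. The 4 Eo- and 4 Eo+ libraries were from embryoid bodies at day 3 of differentiation in hanging drops, sorted by flow cytometry into GFP-negative and GFP-positive cells. Each group has replicates 1, 2, 5 and 6, and 4 values listed for a group follow that order. Locus counts ranged from 648413022 to 837308168 per library, and levels are CPM with TMM-scaled library sizes.

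Eomes itself, the gene used for the sort, was at 36.7 to 57.6 CPM in ESCs, 116 to 167 CPM in Eo- and 445 to 647 CPM in Eo+ libraries, so the negative fraction still held Eomes RNA. The pluripotency genes Pou5f1 and Nanog were also still present at day 3, at 828 to 1198 and 155 to 177 CPM in Eo-. In Eo+ they were at 319 to 634 and 90.0 to 176 CPM, against 1042 to 1499 and 332 to 569 CPM in ESCs. A list of 6 pluripotency genes summed to 2715 to 3590 CPM in ESCs, 1269 to 1629 CPM in Eo- and 452 to 807 CPM in Eo+. Of these 6, 5 were called lower in Eo- than in ESCs and all 6 in Eo+. Feeder fibroblast markers summed to 412, 207, 432 and 148 CPM in the ESC libraries against 34.1 to 44.2 CPM in Eo- and 33.3 to 47.0 CPM in Eo+, with 10 of the 12 genes lower in each day 3 fraction. The exceptions were Dcn (not called) and Thy1 (higher) in Eo-, and Twist2 (not called) and Pdgfrb (higher) in Eo+.

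In the Hedgehog pathway a secreted ligand binds the membrane receptor Patched. Patched otherwise holds the membrane protein Smoothened inactive, and released Smoothened acts at the primary cilium on the Gli transcription factors. Without ligand Gli3 is processed to a repressor, while Gli2 is the main activator on signalling. Gli1, Ptch1 and Hhip are transcribed in response to the signal in many tissues, and the latter pair restrain it. In the early mouse embryo Shh is made by the node, notochord and gut endoderm, and Ihh by the visceral endoderm.

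The gain of ligand RNA at day 3 was not accompanied by a rise of these response genes. Shh went from 0.0731 ± 0.0181 CPM in ESCs to 9.41 ± 2.89 CPM in Eo- (SD, n = 4 each), while Gli1 fell 5.21-fold and Hhip 4.64-fold, and Ptch1 did not pass the test. Smo rose 3.42-fold and Gli3 rose 1.82-fold, and Gli2 fell 3.11-fold. In these bulk libraries fewer cells expressing a gene and less RNA per cell cannot be told apart.

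In Eo- vs ESC, 5 of the 7 members were called (limma, adjusted p of at most 0.05), 2 higher and 3 lower, against 57.3% of all loci tested, 27.9% higher and 29.4% lower. Shh was chosen on this contrast, and nothing is read from that share. In Eo+ vs ESC, 4 of 7 were called, 2 in each direction, against 66.7% of all loci, 32.9% higher and 33.8% lower. In Eo+ vs Eo-, 3 of 7 were called, 2 higher and 1 lower, against 43.4% of all loci, 21.2% higher and 22.2% lower. The shares in the comparisons with Eo+ lie near those of all loci and are no result about the members. The median log2 change of the 7 members was -0.45, -0.46 and -0.02 in the 3 comparisons against 0.02, -0.01 and -0.03 over all loci. The comparisons share libraries and are not independent of each other.

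**Figure D1:**
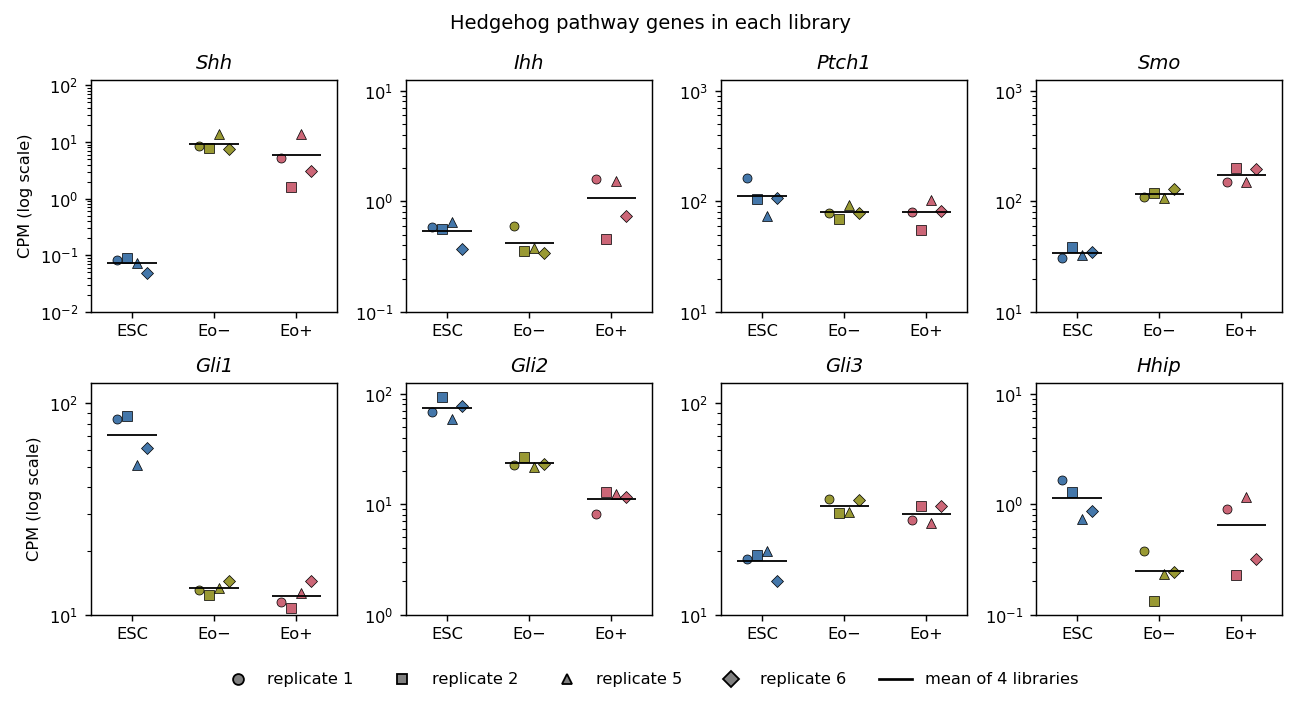
Level of the 8 genes in CPM (log axis) in each of the 12 libraries, with marker shapes for the replicate number and a bar for the mean of 4 libraries. Shh, Smo and Gli3 lie higher in both day 3 fractions than in every ESC library and Gli1 and Gli2 lie lower, while Ptch1 and Ihh overlap between ESC and each day 3 fraction.

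Shh (XLOC_054817, chr5:28456815-28467101 in mm10, minus strand) encodes Sonic hedgehog. Its counts in the ESC libraries were 67, 67, 57 and 32, or 0.0823, 0.0894, 0.0729 and 0.0479 CPM. The Eo- libraries held 8.55, 7.98, 13.7 and 7.42 CPM, and the Eo+ libraries 5.25, 1.63, 14.0 and 3.04 CPM. Every day 3 library thus lay above every ESC library, and the Eo+ values spread from below to just above the Eo- range. The fitted log2 difference from ESCs was 6.97 for Eo- and 5.91 for Eo+, and that of Eo+ from Eo- was -1.06. The last value was -0.57 without Eo+ replicate 2, the lowest Eo+ library, and -1.61 without Eo+ replicate 5, the highest. A pair of transcripts on the opposite strand overlap exons of Shh, Gm26894 at 0.0106, 0.189 and 0.145 CPM and 9530036O11Rik at 0.0167, 0.0697 and 0.219 CPM (means in ESC, Eo- and Eo+). The authors counted with strand, so these reads were kept apart.

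Ihh (XLOC_003584, chr1:74945285-74951672, minus strand), the gene of Indian hedgehog, was low throughout. It measured 0.587, 0.555, 0.650 and 0.367 CPM in ESCs, 0.597, 0.356, 0.375 and 0.341 CPM in Eo-, and 1.58, 0.459, 1.54 and 0.735 CPM in Eo+. Replicates 1 and 5 of Eo+ stood above all other libraries, replicate 6 above all of ESC and Eo-, and replicate 2 within their range. Ihh was higher in Eo+ than in Eo- by 1.22 ± 0.38 on the log2 scale (SE, adjusted p = 0.0183), although the groups overlapped. The call was lost without Eo+ replicate 1 (0.98, adjusted p = 0.0514). The other comparisons did not pass, with -0.38 for Eo- against ESCs (95% interval -1.24 to 0.47, adjusted p = 0.433) and 0.84 for Eo+ against ESCs (0.04 to 1.64, adjusted p = 0.0590). The latter passed without Eo+ replicate 2 (1.21, adjusted p = 0.00337) or replicate 6 (0.97, adjusted p = 0.0484).

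Ptch1 (XLOC_019925, chr13:63508249-63566416, minus strand), receptor and target at once, measured 164, 104, 73.0 and 107 CPM in ESCs, 77.7, 68.8, 92.1 and 78.5 CPM in Eo-, and 80.6, 55.1, 102 and 82.2 CPM in Eo+. ESC replicate 1 was the highest of all 12 libraries, and ESC replicate 5 lay inside the range of both day 3 fractions. The log2 difference was -0.45 for Eo- against ESCs (95% interval -0.91 to 0.02, adjusted p = 0.0909) and -0.46 for Eo+ (-0.93 to 0.00, adjusted p = 0.0735). Both values depended on single libraries. Without ESC replicate 1 they were -0.24 (adjusted p = 0.298) and -0.25 (adjusted p = 0.250), and without Eo+ replicate 2 the second was -0.28 (adjusted p = 0.255). Without ESC replicate 5 both passed as lower, at -0.64 (adjusted p = 0.0141) and -0.65 (adjusted p = 0.0104), and without Eo+ replicate 5 the second did (-0.58, adjusted p = 0.0388). Between the day 3 fractions the difference was -0.02 (95% interval -0.49 to 0.46, adjusted p = 0.961).

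Smo (XLOC_056890, chr6:29735326-29762642, plus strand) encodes Smoothened, the signal transducer. It measured 30.4, 38.5, 32.6 and 35 CPM in ESCs, 110, 119, 107 and 129 CPM in Eo-, and 150, 200, 149 and 194 CPM in Eo+. The 3 groups did not overlap. Against ESCs Smo rose by 1.78 ± 0.12 in Eo- (SE, log2, adjusted p = 7.25e-08) and by 2.34 ± 0.12 in Eo+ (adjusted p = 1.87e-09), and Eo+ exceeded Eo- by 0.56 ± 0.11 (adjusted p = 0.000778).

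Gli1 (XLOC_008777, chr10:127329847-127342417, minus strand) encodes an activator that is itself a target of the pathway. It measured 83.9, 87.5, 51.0 and 61.2 CPM in ESCs, 13.1, 12.4, 13.4 and 14.4 CPM in Eo-, and 11.4, 10.8, 12.6 and 14.4 CPM in Eo+. Every ESC library lay above every day 3 library, and the day 3 fractions overlapped. Gli1 fell by 2.38 on the log2 scale in Eo- (SE 0.18, adjusted p = 1.43e-07) and by 2.51 in Eo+ (SE 0.18, adjusted p = 4.30e-08), both against ESCs. Between the fractions it differed by -0.13 (95% interval -0.58 to 0.33, adjusted p = 0.665). Its 3′ end overlaps 97 exon bases of Arhgap9 on the opposite strand, which was at 7.20, 3.53 and 3.32 CPM in ESC, Eo- and Eo+.

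Gli2 (XLOC_004079, chr1:118834062-119055681, minus strand), the main activator, also stepped down, from 68.1, 93.0, 58.6 and 77.2 CPM in ESCs through 22.7, 26.5, 21.7 and 23.3 CPM in Eo- to 8.22, 12.9, 12.2 and 11.5 CPM in Eo+. The 3 groups did not overlap. Against ESCs it fell by 1.64 on the log2 scale in Eo- (SE 0.14, adjusted p = 6.36e-07) and by 2.73 in Eo+ (SE 0.17, adjusted p = 1.05e-08), and it was lower in Eo+ than in Eo-, by -1.09 (SE 0.18, adjusted p = 0.000294).

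Gli3 (XLOC_017306, chr13:15463202-15730056, plus strand), the gene of the main repressor, went the other way, from 18.4, 19.2, 20.0 and 14.5 CPM in ESCs to 35.2, 30.3, 30.6 and 34.7 CPM in Eo- and 27.9, 32.5, 27.0 and 32.6 CPM in Eo+. Each day 3 library exceeded each ESC library. Gli3 rose by 0.86 ± 0.11 in Eo- (SE, log2, adjusted p = 1.49e-05) and by 0.73 ± 0.11 in Eo+ (adjusted p = 4.38e-05), and between the fractions it differed by -0.13 (95% interval -0.35 to 0.09, adjusted p = 0.331).

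Hhip (XLOC_069274, chr8:79965857-80058034, minus strand) encodes a membrane protein that binds the ligands and limits their action. It measured 1.65, 1.28, 0.735 and 0.867 CPM in ESCs, 0.376, 0.133, 0.235 and 0.243 CPM in Eo-, and 0.898, 0.227, 1.16 and 0.317 CPM in Eo+. All Eo- libraries lay below all ESC libraries, whereas Eo+ replicates 1 and 5 reached the ESC range. Hhip fell by 2.21 on the log2 scale in Eo- vs ESC (SE 0.50, adjusted p = 0.00188). In Eo+ vs ESC the difference was -1.04 (95% interval -2.02 to -0.06, adjusted p = 0.0584). With the replicate number as a block it was called lower, as given at the end. It passed as lower without ESC replicate 5 (-1.23, adjusted p = 0.0387), without Eo+ replicate 1 (-1.30, adjusted p = 0.0307) or without Eo+ replicate 5 (-1.40, adjusted p = 0.0135), and was -0.62 (adjusted p = 0.223) without Eo+ replicate 2.

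In Eo+ vs Eo- the log2 difference of Hhip was 1.17 (95% interval 0.03 to 2.32), with an adjusted p of 0.0905. Same-numbered Eo- and Eo+ libraries deviated together from their group means, and with the replicate number as a block Hhip was called higher in Eo+ (1.23, adjusted p = 0.0273). It was also called without Eo+ replicate 2 (1.59, adjusted p = 0.0194). In each of the 4 pairs the Eo+ library held the higher Hhip level.

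**Figure D2:**
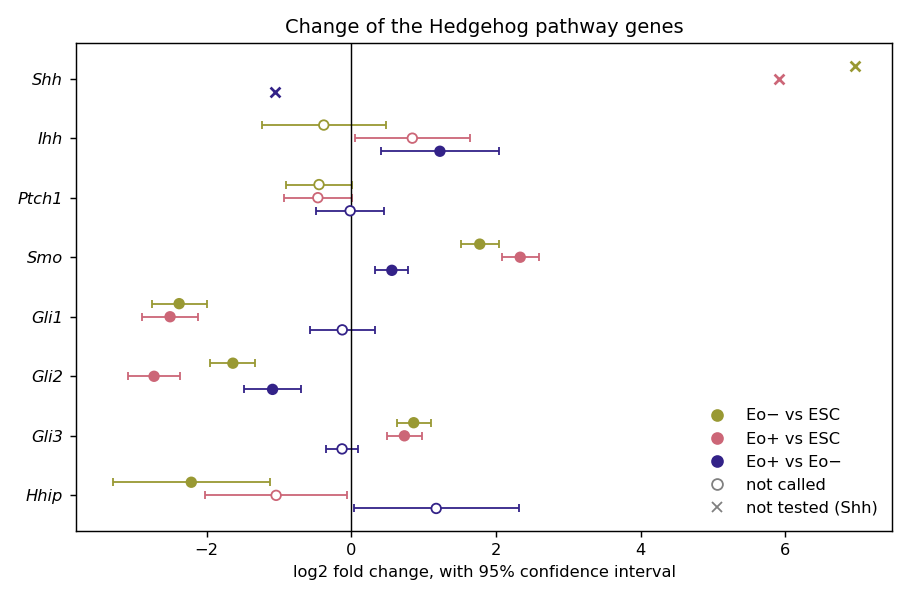
Log2 fold change of each gene in the 3 comparisons, with 95% confidence intervals from the limma fit; filled circles passed an adjusted p of 0.05, open circles did not, and crosses mark Shh, which was not tested. Smo and Gli3 lie to the right of 0 and Gli1 and Gli2 to the left in both comparisons with ESCs, and the intervals of Ptch1 reach or cross 0 in all 3.

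Within the Eo+ group Shh, Ihh and Hhip were each high in replicates 1 and 5 and low in 6 and 2. Ptch1, like Shh, was highest in Eo+ replicate 5 and lowest in replicate 2 (102 and 55.1 CPM), with replicate 6 just above replicate 1 (82.2 and 80.6 CPM). In Eo- both Shh and Ptch1 were highest in replicate 5. Visceral endoderm markers summed to 185, 30.7, 115 and 56.1 CPM in Eo+ replicates 1, 2, 5 and 6, against 16.3 to 36.8 CPM in Eo- and 14.2 to 19.7 CPM in ESC libraries, and 7 of the 10 passed the test as higher in Eo+ against Eo-. Ttr, a serum carrier gene of that list which did not pass in Eo+ vs Eo- (adjusted p = 0.0503), was at 22.8, 0.661, 11.8 and 3.55 CPM in Eo+, at 0.183 to 3.83 CPM in Eo- and at 0 in 1 ESC library, and Apoa4 was at 0 in 3 ESC libraries. Gut endoderm markers summed to 958, 614, 2071 and 823 CPM in Eo+, against 1083 to 1549 CPM in Eo- and 705 to 1032 CPM in ESC libraries, so 3 of the 4 Eo+ libraries lay below every Eo- library. Of the Eo+ sums Trh held 772, 462, 1814 and 673 CPM. Foxa1, another gene of that list, was at 13.0, 4.45, 13.2 and 6.69 CPM in Eo+ against 0.841 to 1.83 CPM in Eo-. Foxa2, also of that list, was at 90.1, 102, 165 and 91.4 CPM in Eo+, lowest in replicate 1. In Eo+ against Eo- 4 of the 6 genes were called higher, Foxa1 among them (log2 difference 2.83, adjusted p = 4.95e-05). Mesendoderm markers summed to 1710, 2995, 1815 and 2574 CPM in Eo+, lower in replicates 1 and 5. Eo- replicate 1, with the highest Ihh and Hhip of its group, also had the highest visceral endoderm sum of its group (36.8 against 16.3 to 20.1 CPM). The same library stood further apart in primitive blood markers (135 against 8.68 to 16.3 CPM) and in endothelium markers (139 against 21.6 to 40.8 CPM). Eo+ replicate 1 was the highest of its group in both sums, at 118 against 23.8 to 64.8 CPM and 329 against 78.6 to 272 CPM. The sums differ in make-up. Kdr, which the study lists among mesendoderm genes, held 71.9 to 290 CPM of the Eo+ endothelium sums. Of the 4 endothelium genes Kdr was called higher in Eo+ than in Eo- and Pecam1 lower (-2.83 on the log2 scale), and 2 did not pass. The blood sums held up to 73.2 CPM of Hbb-bh1 in Eo- and up to 83.6 CPM of Tal1 in Eo+. The part of the cell types that these lists stand for in the levels of Ihh, Hhip and Shh was not tested.

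In ESCs the library with the highest feeder sum, replicate 5, had the lowest Gli1, Gli2, Ptch1 and Hhip, and replicate 1, with a feeder sum almost as high, had the highest Ptch1 and Hhip. Gli1 was 61.2 CPM in replicate 6, whose feeder sum was the lowest, against 12.4 to 14.4 CPM in Eo-. Without ESC replicate 5 the fall of Gli1 in Eo- was 2.53 on the log2 scale, the most negative difference among the fits that left out 1 library. ESC replicate 5 also had the lowest sum of pluripotency genes (2715 against 3056 to 3590 CPM) and the highest sum of mesendoderm markers (284 against 91.5 to 168 CPM). The part of feeder RNA, or of what these other sums reflect, in the ESC levels was not tested.

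**Figure D3:**
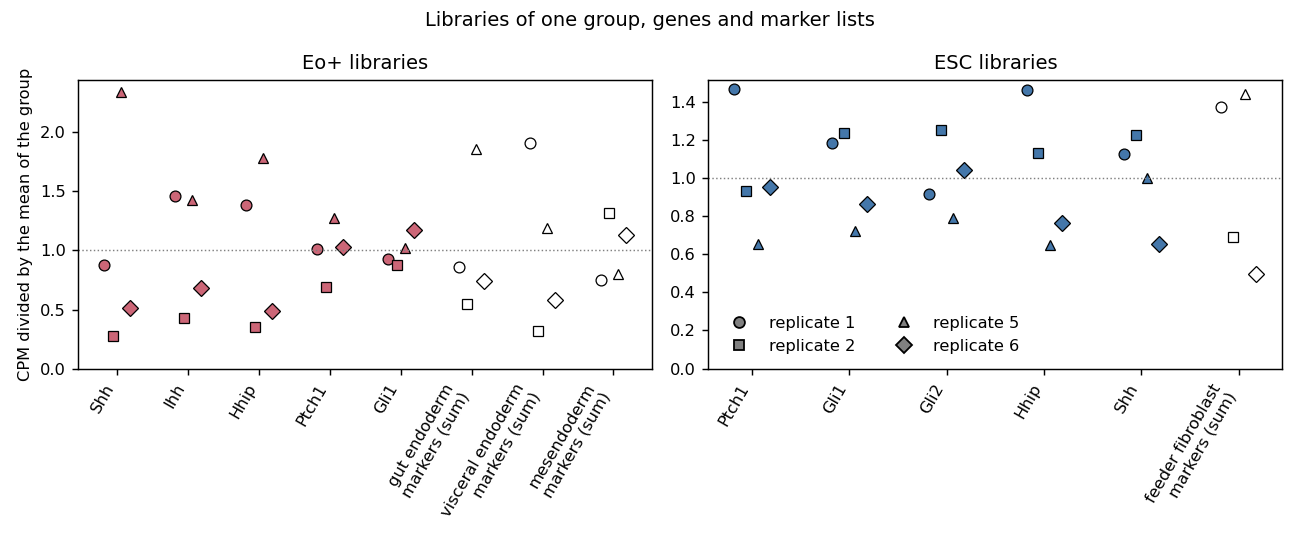
CPM of single genes (filled) and summed CPM of marker lists (open) in each library, divided by the mean of the 4 libraries of its group, for Eo+ at left and ESC at right. In Eo+, replicates 1 and 5 exceed replicates 2 and 6 for Shh, Ihh, Hhip and both endoderm sums, but not for Ptch1, Gli1 or the mesendoderm sum. Ptch1 is highest in Eo+ replicate 5 and lowest in replicate 2, as is Shh. In ESC, replicates 1 and 5 share a high feeder sum and lie at opposite ends for Ptch1 and Hhip.

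Levels of different genes were compared per length, as FPKM over the merged exons of the locus. In ESCs Ptch1 (12.7 ± 4.29), Gli1 (10.9 ± 2.72), Gli2 (8.11 ± 1.60) and Smo (6.29 ± 0.641) led, each overlapping its neighbour in the order. Gli3 followed at 1.63 ± 0.220, then Hhip (0.219 ± 0.0804) and Ihh (0.148 ± 0.0334), which overlapped, and Shh was lowest at 0.0272 ± 0.00673 (SD, n = 4). In Eo- Smo led at 21.5 ± 1.84, clear of Ptch1 at 8.97 ± 1.09, followed by Shh at 3.49 ± 1.07, Gli3 at 2.96 ± 0.237 and Gli2 at 2.57 ± 0.229, which overlapped in turn. Gli1 came next at 2.05 ± 0.129, and Ihh (0.114 ± 0.0331) and Hhip (0.0476 ± 0.0192) came last. In Eo+ the order was Smo (31.9 ± 5.07), Ptch1 (9.04 ± 2.16), Gli3 (2.72 ± 0.266), Shh (2.22 ± 2.06), Gli1 (1.90 ± 0.247), Gli2 (1.23 ± 0.227), Ihh (0.295 ± 0.155) and Hhip (0.125 ± 0.0871). Shh there overlapped Gli3, Gli1 and Gli2, and Ihh overlapped Hhip.

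By mean, Gli3 thus went from the lowest of the Gli genes in ESCs to the highest in both day 3 fractions. In ESCs the ratio of Gli1 to Gli3 in FPKM was 4.34 to 7.78 within a library, and in all 4 libraries Gli1 exceeded Gli2 and Gli2 exceeded Gli3. In Eo- Gli1 stood below Gli3 in 4 of 4 libraries, at a ratio of 0.633 to 0.745, and in Eo+ likewise at 0.565 to 0.796. Gli2 still exceeded Gli3 in 1 of 4 Eo- libraries. In Eo+ Gli1 exceeded Gli2 in 4 of 4 libraries with either length, as in ESCs. With the longest matched transcript as length, Gli1 was below Gli3 in 4 of 4 Eo- and 3 of 4 Eo+ libraries, while Gli1 exceeded Gli2 in 3 of 4 Eo- libraries instead of 0. Smo was below Ptch1 in all 4 ESC libraries and above it in all day 3 libraries, or in 3 of 4 Eo- libraries with the other length. That length also raised the mean of Ptch1 in Eo- to 18.4 FPKM and put Gli3 (4.002), Gli1 (3.63) and Gli2 (3.54) above Shh, which stayed at 3.49 FPKM, so the place of Shh in that order depends on the length used.

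**Figure D4:**
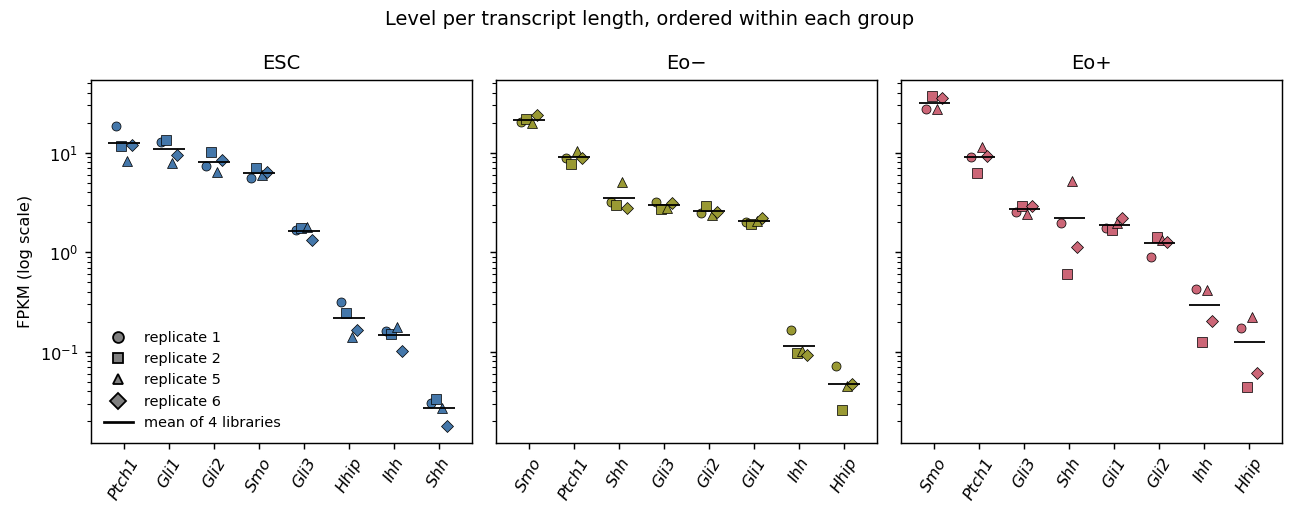
FPKM over merged exons (log axis) of the 8 genes, ordered by mean within each group, with 1 point per library and a bar for the mean. By mean, Gli1 and Gli2 stand above Gli3 in ESCs and below it in both day 3 groups, where Smo is the most abundant of the 8 per length.

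The promoters of Ptch1 and Hhip are shown because these genes are commonly read as a measure of pathway activity. RefSeq windows from 250 bases before to 50 bases after the transcript start (GRCm38.p6) matched 6 of the 8 members, all but Shh and Gli1. The Ptch1 window is chr13:63565686-63565985 and the Hhip window chr8:80057959-80058258, both read 5′ to 3′ on the minus strand.
Ptch1: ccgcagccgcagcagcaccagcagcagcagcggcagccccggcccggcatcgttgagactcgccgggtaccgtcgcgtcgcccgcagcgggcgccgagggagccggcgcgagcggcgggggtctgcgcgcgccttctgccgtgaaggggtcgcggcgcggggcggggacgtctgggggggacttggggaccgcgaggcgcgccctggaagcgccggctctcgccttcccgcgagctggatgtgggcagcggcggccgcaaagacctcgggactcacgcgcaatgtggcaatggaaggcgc
Hhip: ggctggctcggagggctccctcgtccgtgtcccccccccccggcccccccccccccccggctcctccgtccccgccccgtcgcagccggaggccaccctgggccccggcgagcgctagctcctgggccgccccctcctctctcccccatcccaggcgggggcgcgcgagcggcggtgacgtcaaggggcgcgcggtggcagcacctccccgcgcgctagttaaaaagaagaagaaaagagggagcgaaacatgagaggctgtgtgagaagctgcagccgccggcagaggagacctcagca
The Gli binding motif GACCACCCA, searched on both strands, was in 0 of these 6 windows and in 83 of 32851 windows of all genes (0.253%), and no letters are capitalised for that reason. With 1 mismatch allowed, tried after the exact search, it was again in 0 of 6, against 6.74% of all windows. GC content was 76.3% and 73.7% in the Ptch1 and Hhip windows, 67.3% to 72.7% in the other 4, and 52.7% in the median window. The absence of these letters from 300 bases bears on nothing outside them.

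Of 42 other genes of the pathway, listed by role, 39 were tested, 1 had too low a level and 2 were not analysed here. Against ESCs, 22 were higher and 6 lower in Eo- and 30 and 6 in Eo+, while Eo+ against Eo- gave 24 and 2. Over all loci tested, 27.9% were higher and 29.4% lower in the first of these comparisons, 32.9% and 33.8% in the second, and 21.2% and 22.2% in the third, and these shares are the background of the counts by role that follow. Their median log2 change was 0.37, 0.75 and 0.34 in these comparisons, against 0.02, -0.01 and -0.03 over all loci.

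Among 6 genes of ligands and ligand release, 1 was higher and 2 were lower in Eo- than in ESCs, 4 and 2 in Eo+ than in ESCs, and in Eo+ against Eo- 3 were higher and 3 were not called. Hhat, the acyltransferase that attaches palmitate to the ligand, rose by 0.58 ± 0.14 in Eo- and 1.32 ± 0.14 in Eo+ against ESCs (SE, log2, adjusted p = 0.00307 and 1.12e-06). Dhh, the gene of the remaining ligand, Desert hedgehog, was at 0.419, 0.177, 0.333 and 0.120 CPM in ESCs, 0.0948 to 0.139 CPM in Eo- and 0.0538 to 0.155 CPM in Eo+. It fell by 1.04 and by 1.45 on the log2 scale (adjusted p = 0.0397 and 0.00849), with overlapping groups. Scube3, of a family that releases the ligand from cells, was also lower in both (-0.99 and -1.18). Scube1 of the same family was higher in Eo+ than in Eo- (1.00, adjusted p = 0.0277).

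Of 4 receptors and coreceptors, 3 were higher in Eo- than in ESCs and 1 was not called, 3 were higher and 1 was lower in Eo+ than in ESCs, and 2 were higher and 1 was lower in Eo+ than in Eo-. Gas1, a coreceptor that promotes ligand reception, measured 6.44, 3.92, 6.54 and 3.65 CPM in ESCs, 14.5, 16.0, 12 and 12.7 CPM in Eo-, and 76.2, 132, 53.0 and 116 CPM in Eo+. The groups did not overlap, and the log2 rise from ESCs was 1.46 ± 0.39 in Eo- (SE, adjusted p = 0.00526) and 4.15 ± 0.35 in Eo+ (adjusted p = 1.56e-07), and that from Eo- to Eo+ was 2.69 ± 0.28 (adjusted p = 7.31e-06). The coreceptors Boc and Cdon were higher than in ESCs in both fractions as well, Boc by 1.22 and 1.96 and Cdon by 0.72 and 0.86 on the log2 scale.

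Lrp2, a large endocytic receptor that can bind Shh, was at 42.4, 28.3, 38.5 and 49.5 CPM in ESCs, 40.4, 36.0, 51.5 and 54.5 CPM in Eo-, and 6.00, 3.85, 10.5 and 3.87 CPM in Eo+. ESC and Eo- overlapped, and all Eo+ libraries lay below both. Lrp2 was lower by a log2 difference of -3.02 ± 0.29 in Eo+ vs Eo- (SE, adjusted p = 3.40e-06) and -2.81 ± 0.29 in Eo+ vs ESC (adjusted p = 1.15e-06).

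Of 15 genes of intracellular transduction, 11 were higher and 1 was lower in Eo- than in ESCs, 12 and 1 in Eo+ than in ESCs, and in Eo+ against Eo- 9 were higher and 6 were not called. The largest rise in Eo- was that of Gpr161 (1.35 ± 0.10, adjusted p = 2.00e-07), a ciliary receptor that restrains the pathway, and the largest in Eo+ that of the kinase gene Stk36 (1.94 ± 0.12 vs ESC, adjusted p = 1.46e-08, and 0.90 ± 0.11 vs Eo-, adjusted p = 2.97e-05). The kinase gene Csnk1a1 was the one that fell, by 0.26 and 0.15 on the log2 scale (adjusted p = 0.00123 and 0.0258). Prkaca lies in a locus joined to a neighbouring gene, so its value is uncertain.

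Of 7 genes of cilium machinery, 5 exceeded the ESC level in Eo- and 7 in Eo+, and 6 were higher in Eo+ against Eo-, the remaining genes being not called, beside 27.9%, 32.9% and 21.2% of all loci called higher. Ift122, of the intraflagellar transport machinery, rose by 1.04 ± 0.10 in Eo- vs ESC (SE, log2, adjusted p = 1.62e-06). Kif3a, a motor subunit needed to build cilia, went from 34.3 to 36.1 CPM in ESCs to 47.0 to 55.0 CPM in Eo- and 91.5 to 103 CPM in Eo+. It rose by 1.45 ± 0.07 in Eo+ vs ESC (adjusted p = 8.59e-10) and by 0.90 ± 0.06 in Eo+ vs Eo- (adjusted p = 3.18e-07).

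**Figure D5:**
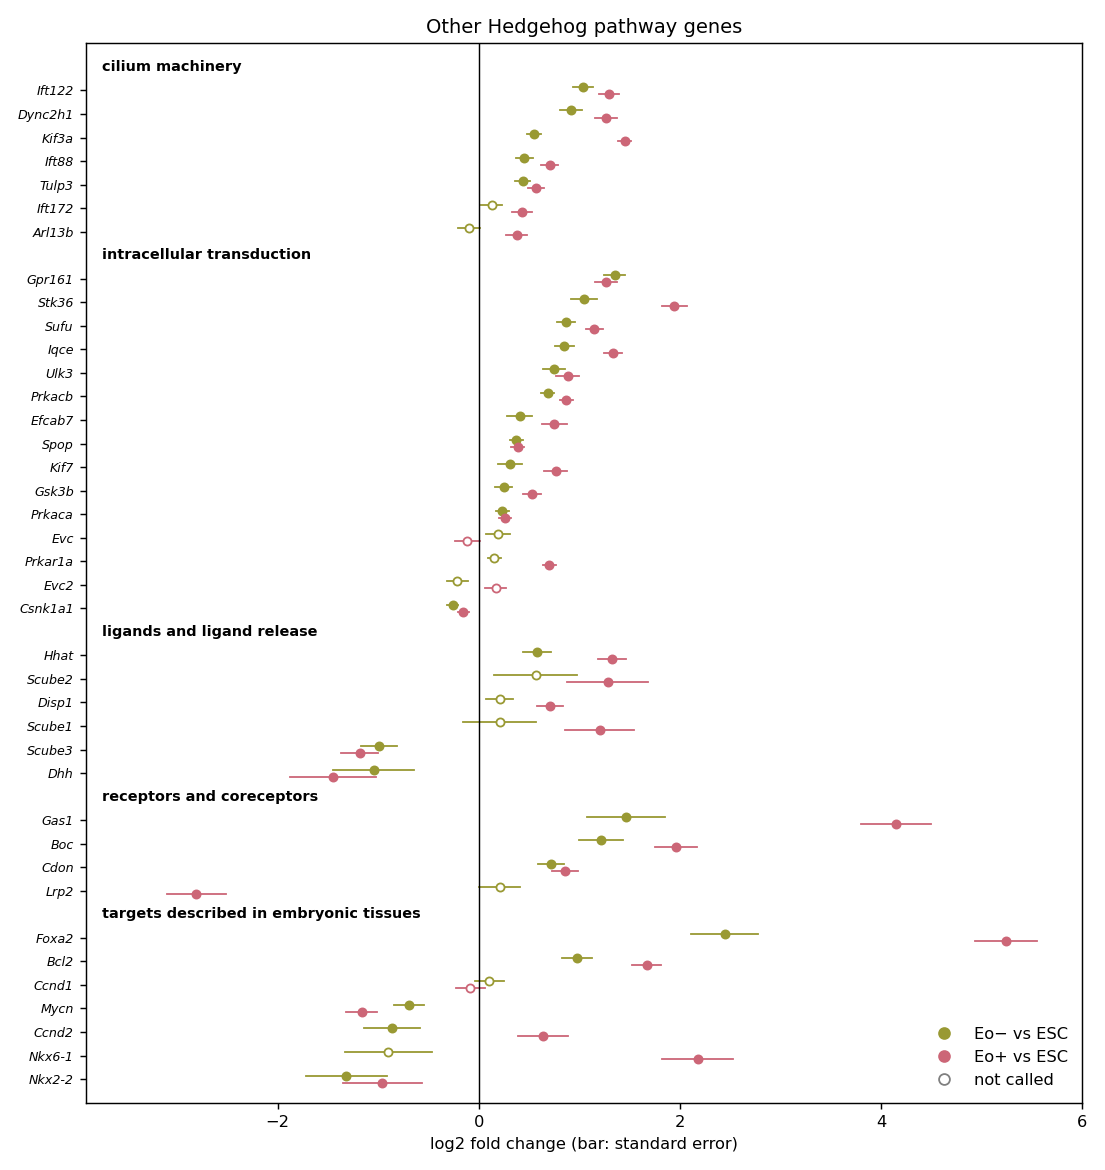
Log2 fold change with standard error of the 39 other pathway genes, grouped by role, of Eo- (olive) and Eo+ (rose) against ESCs; filled points were called. Cilium genes lie at or right of 0 except Arl13b in Eo-, which was not called, whereas targets spread from Foxa2 (2.45 and 5.24) down to Nkx2-2 in Eo- (-1.32) and Mycn in Eo+ (-1.16).

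Among 7 tested genes described as targets in embryonic tissues, 2 were higher and 3 were lower in Eo- than in ESCs, 4 and 2 in Eo+ than in ESCs, and 4 and 1 between Eo+ and Eo-. Foxa2, a transcription factor of the node, midline and endoderm, measured 3.03, 2.51, 4.72 and 1.82 CPM in ESCs, 16.1, 18.7, 12.5 and 15.6 CPM in Eo-, and 90.1, 102, 165 and 91.4 CPM in Eo+. The groups did not overlap, and Foxa2 rose by 2.45 ± 0.33 and 5.24 ± 0.31 against ESCs (SE, log2, adjusted p = 3.01e-05 and 6.28e-09). Foxa2 also marks endoderm, whose markers are given above, and the axial midline. Axial midline markers summed to 207 to 366 CPM in ESCs, 292 to 501 CPM in Eo- and 793 to 1189 CPM in Eo+, and 4 of the 6, Foxa2, T, Chrd and Foxj1, were called higher in each of the 3 comparisons. Chrd and Foxj1 rose by 4.41 and 4.93 on the log2 scale in Eo+ vs ESC. Nog did not pass, and Noto, which also did not, lies in a locus joined to a neighbouring gene. The joined locus held 157 to 171 CPM of the ESC sums and T, which also marks early mesoderm, 440 to 781 CPM of the Eo+ sums. The part of these cells in the levels of Foxa2 and Shh was not tested. Bcl2, which protects cells from apoptosis, was higher in both fractions, at 0.98 ± 0.15 in Eo- and 1.67 ± 0.14 in Eo+ (adjusted p = 7.90e-05 and 2.15e-07).

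The 3 targets called lower in Eo- were Nkx2-2, Ccnd2 and Mycn. Nkx2-2, a ventral neural transcription factor, was under 1.1 CPM in every library and fell by 1.32 on the log2 scale (adjusted p = 0.0123), and by 0.96 in Eo+ against ESCs (adjusted p = 0.0446), with overlapping groups in both. Mycn, a growth regulator, fell by 0.70 in Eo- and by 1.16 in Eo+ against ESCs (adjusted p = 0.00115 and 1.12e-05), and was lower in Eo+ than in Eo- (-0.47, adjusted p = 0.0253). Ccnd2, a G1 cyclin, fell by 0.86 in Eo- (adjusted p = 0.0177) and was higher than in ESCs in Eo+ (0.64, adjusted p = 0.0361). Nkx6-1, another ventral neural factor that endoderm derivatives also express, was at 1.04 to 1.62 CPM in Eo+ against 0.114 to 0.188 CPM in Eo-, a log2 rise of 3.08 ± 0.39 (SE, adjusted p = 3.33e-05). Ventral neural tube markers, a list of 6 genes that holds both, summed to 7.71 to 12.1 CPM in ESCs, 1.251 to 1.82 CPM in Eo- and 1.42 to 2.44 CPM in Eo+. Of its 4 tested genes Pax6 and Sox1, whose locus also carries another gene name, were called lower in Eo+ than in Eo- (-2.86 and -3.20 on the log2 scale, adjusted p = 1.18e-05 and 4.31e-05), while Nkx2-2 did not pass (0.36, adjusted p = 0.534).

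By similarity of log2 CPM over the 12 libraries, the 5 of 13981 candidate genes most like Shh were 4930426D05Rik (Pearson r = 0.989), Mcoln3 (0.987), Tspan33 (0.986), Cmtm8 (0.986) and Prss8 (0.985). Their mean levels in ESC, Eo- and Eo+ were, for Mcoln3, 1.19, 7.10 and 4.31 CPM and, for Prss8, 8.60, 31.0 and 23.3 CPM, each higher at day 3 and highest in Eo-. The 3 most like Ptch1 were Map1b (0.885), Gm2093 (0.878) and Naaa (0.878). The 12 libraries fall into 3 groups, which these coefficients mostly reflect, and they are given as a description.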

How the data were processed

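Libraries were stranded, poly(A)-selected and sequenced as 100-base pairs. The authors mapped reads to mm10 with STAR (version 2.0.4 in the submitters' processing notes), assembled transcripts with Cufflinks 2.2.1 on the Ensembl annotation, and deposited whole-number counts of reads per merged locus, made with HTSeq 0.6.1. The deposited transcript annotation gave names, positions and exon lengths. A deposited table of scaled values was not used. HTSeq had set aside 22.4% to 26.2% of alignments as not unique, and these entered no total.

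Loci were tested if the mean FPKM, computed from counts and merged exon length, exceeded 0.1 in at least 1 group and the locus was annotated or had at least 2 exons and a transcript of 200 bp. Counts were transformed by voom with TMM library sizes, and the 12 libraries entered a single fit with a mean for each group, by limma 3.58.1 and edgeR 4.0.16 in R 4.3.3. Tests were two-sided and moderated, with Benjamini-Hochberg adjustment over all 20212 loci, and all adjusted p-values of genes come from this fit unless another is named. The script was tested on simulated data. Alternatives used DESeq2 1.42.0, edgeR's quasi-likelihood test, other scalings, filters and thresholds, and left out each library.

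Members, lists and tests were chosen with earlier results of these data known. Named genes are all members, the largest called rise and fall of each list and comparison, and targets called in Eo- vs ESC. Boc, Cdon, Scube3 and the marker genes were given after their values were seen. Replicates are separate differentiation sets by the study's methods. Deviations from the group mean of same-numbered Eo- and Eo+ libraries correlated at r = 0.405, 0.173, 0.198 and 0.133 over loci, so the numbers pair these fractions. The study's methods count ESC libraries in the differentiation sets, but this check was mixed for them. Against Eo-, same-numbered ESC libraries correlated above all others in replicates 1 and 2 (r = 0.196 and 0.151) but not in 5 and 6. Against Eo+ they did so in replicate 2 only. Some genes of the lists and of the similarity search are not reported here.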

Additional observations from a re-analysis of the deposited data

Results flagged for a closer look

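The Ihh level of Eo- replicate 1, 0.597 CPM, stood apart from the other 3 Eo- libraries (0.341 to 0.375 CPM), its gap to the nearest library being 0.865 of the group's range, above Dixon's 95% critical value for 4 samples. It was the 1 such value among 24 groups of 4 libraries examined, and chance flags about 1 in 20 groups.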

How the results depend on the processing

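No called log2 change of the 7 tested members changed sign under any alternative. Changes of the other pathway genes were recomputed only as counts. All 120 recomputed counts of members and of other pathway genes called stayed within 1.5 times of the reported count. The other pathway genes were not recounted under other filters, a 2-fold threshold or a fit of only the 2 groups compared without a block. Many of their called changes were under 2-fold (Hhat, 0.58 in Eo- vs ESC), and that threshold would remove them. Leaving out each library in turn gave 5 to 6, 4 to 6 and 2 to 4 of 7 members called in Eo- vs ESC, Eo+ vs ESC and Eo+ vs Eo-, and 25 to 29, 33 to 36 and 20 to 27 of the other genes. With library totals in place of TMM the median change of all loci in Eo- vs ESC was 0.10 instead of 0.02.

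The calls of Ptch1, Ihh and Hhip depended on the setting. DESeq2's Wald test called Ptch1 lower in Eo- vs ESC (-0.54, adjusted p = 0.0335) and in Eo+ vs ESC (-0.52, adjusted p = 0.0350), as did a filter of 1 CPM in 4 libraries in Eo+ (-0.54, adjusted p = 0.0391). Ihh in Eo+ vs ESC was called by edgeR (1.00, adjusted p = 0.0262) and DESeq2 (0.96, adjusted p = 0.0150), and so was Hhip in Eo+ vs Eo- (1.40 by each, adjusted p = 0.0337 and 0.0102). With the replicate block, Ihh (0.90, adjusted p = 0.0111) and Hhip (-0.94, adjusted p = 0.0408) were called in Eo+ vs ESC. Whether the numbers pair ESCs with the day 3 libraries was left unsettled by the check on deviations. A block within only the 2 groups compared, added after seeing the data, called Hhip in Eo+ vs Eo- (1.29, adjusted p = 0.00538), Ptch1 in Eo- vs ESC (-0.48, adjusted p = 0.0470) and Ihh in Eo+ vs ESC (0.88, adjusted p = 0.0306). The block changed no other member's call. Requiring a 2-fold change removed Gli3 from both comparisons with ESCs and Smo from Eo+ vs Eo-. The cause was not tested. The levels of Ihh and Hhip, all under 2 CPM, rest on 104 to 1347 counts per library. Those of Shh in ESCs rest on 32 to 67 counts, and those of Dhh on 38 to 341.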
